A study of Saccharomyces cerevisiae with 12 samples.

Results

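Promoter accessibility of 51 amino acid biosynthesis genes was examined in 12 ATAC-seq libraries of budding yeast, out of 6002 protein-coding genes of the 16 nuclear chromosomes. The set is a list of genes known for this pathway: 50 enzymes, grouped here by product into 7 pathways, and GCN4, which encodes their common activator. All 51 were found by symbol in the RefSeq R64 gene table. ATAC-seq uses the Tn5 transposase to cut and tag accessible DNA, so that peaks of reads mark open chromatin. The promoter window ran from 500 bp before the gene start to 100 bp after it, and a library counted as open at a gene when a peak summit lay in this window. Gene starts are those of the RefSeq table, and positions below are relative to them, negative upstream.

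The yeast were Saccharomyces cerevisiae BY4741, a haploid laboratory strain that is known to lack functional HIS3, LEU2, MET15 and URA3. Each strain carried synHPRT1, a synthetic human HPRT1 locus, or synHPRT1R, its reversed sequence. The construct sat either on chromosome XI or on a separate yeast artificial chromosome (YAC), with 3 libraries for each of the 4 combinations. YAC strains grew in SC-Leu, a synthetic medium without leucine, and integrated strains in YPD, a rich medium. Format and medium therefore cannot be told apart in any comparison below, and "YAC" stands for both. The peak names hold 1 strain name per group with the suffixes 1 to 3, so each group may come from 1 strain, and nothing says whether its replicates were separate isolates. P-values then measure only the spread between these libraries.

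Yeast can make all amino acids of its proteins, and the enzymes are encoded by genes scattered over the chromosomes. When amino acids run short, translation of GCN4 rises through short open reading frames in its leader, and the Gcn4 protein activates biosynthesis genes of many pathways at once. Some pathways have activators of their own, such as Leu3 for leucine and Lys14 for lysine. Many steps are carried out by pairs of isoenzymes, which differ in feedback control, in their place in the cell or in the conditions of their use.

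The lists held 913 to 1303 nuclear peaks per library. The weakest nuclear peak of each library had 13 to 16 reads at its summit, as recovered from the deposited fold enrichment and p-value, against medians of 20 to 26. The lowest deposited -log10 q of a nuclear peak was 1.30 to 1.63. An uncalled promoter thus had no summit past that limit at this depth, which does not show closed chromatin.

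Amino acid biosynthesis promoters were open in 35.0% ± 6.19 of cases per library (mean ± SD over 12 libraries), against 15.6% ± 2.04 of all genes. The number of open members was lowest, at 12 of 51, in HPRT1R YAC replicate 3 and highest, at 23, in HPRT1R YAC replicate 1. In every one of the 12 libraries the share was above that of all genes, by 1.80 to 2.98 times. The 2 ends of that range were again HPRT1R YAC replicates 3 and 1. Of the 51 members, 34 were open in at least 1 library, where the background over all genes was 37%. The promoters of 17 members were open in no library, against a background of 63%. Those of 3 members, LYS4, LYS21 and GDH1, were open in all 12, against a background of 3.03%. The other 31 were open in 1 to 11 libraries, against 34%. A typical member was open in 2 of 12 libraries by the median, and a typical gene in 0.

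**Figure D1:**
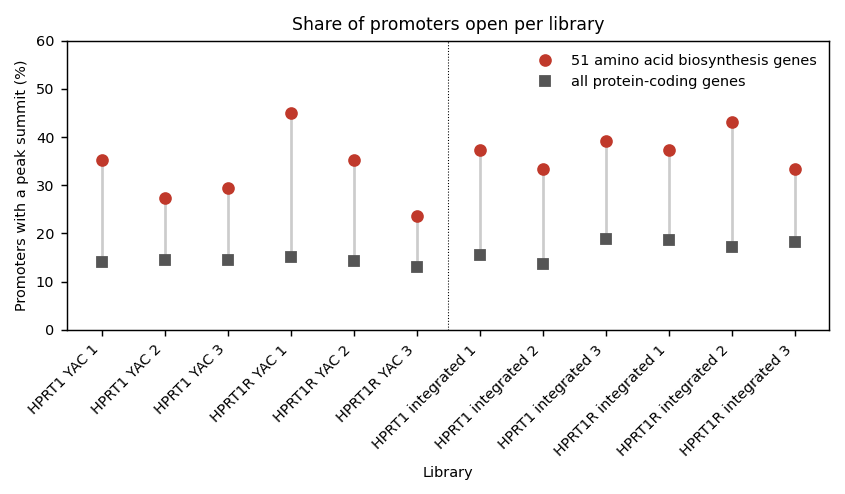
Percentage of promoters with a peak summit in each library (y axis) for the 51 amino acid biosynthesis genes (red circles) and all 6002 protein-coding genes (grey squares), with YAC libraries left and integrated libraries right of the dotted line. The members lie between 23.5% and 45.1%, above all genes in every library.

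The peaks at open members were of middling strength. A peak's strength was read as the percentile of the authors' fold enrichment among all nuclear peaks of its own library. The 214 open cases, of 612 pairs of a member and a library, had a median percentile of 47.9, against 47.8 over all genes. Strength rose with the number of open libraries in both sets. A peak counts only past the calling limit, so some of this rise follows from the definition of open. Members open in 1 to 3 libraries had a median percentile of 24.9, those open in 9 to 11 libraries 47.2, and the 3 members open in all 12 reached 65.0. Over all genes the same classes had 21.5, 56.3 and 72.8.

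Open summits lay at a median of -315.5 bp, against -287 bp over all genes, and 55.1% of them lay more than 300 bp upstream. Only 1 lay downstream of the gene start, at ILV6. Upstream neighbours were the nearest annotated protein-coding genes, so that CPA1 counted as tandem to YOR302W and SER1 as tandem to FYV12. Members with a divergent upstream neighbour were open in 50.5% of libraries (17 genes), and those with a tandem one in 27.2% (34 genes). Over all genes the values were 20.3% and 10.6%. Divergent neighbours made up 33.3% of the members and 52.0% of all genes. The median distance to the divergent neighbour was 1009 bp for members and 508 bp for all genes. At 6 members a summit also lay in the promoter window of another annotated gene. These shared summits made up all open cases of LYS4 (with RTN1), PRO1 (with CFT1), SER1 (with the ribosomal protein gene RPS30B, and in 1 library also FYV12) and CPA1 (with YOR302W), and single cases of LEU4 (with MET4) and HOM2 (with YDR157W). YOR302W is an annotated reading frame on the same strand as CPA1, 56 bp upstream of it. For the other members named, the lists do not tell which gene such a peak belongs to.

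Pathways differed in how many of their promoters were open. Arginine genes were open in 46.7% ± 19.7, glutamate, serine and proline genes in 42.9% ± 6.09, lysine genes in 41.7% ± 7.36, histidine genes in 39.6% ± 27.1 and branched-chain genes in 39.2% ± 13.1 (mean ± SD, n = 12 libraries each). Neighbours in this order differed by less than their spread. Threonine and asparagine genes followed with 27.4% ± 12.9. Aromatic genes came last with 21.7% ± 7.18 and ranged from 10% to 30% over libraries. With 4 to 10 genes in a pathway 1 gene moves a share by 10 to 25 points, and the order of pathways was not tested.

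**Figure D2:**
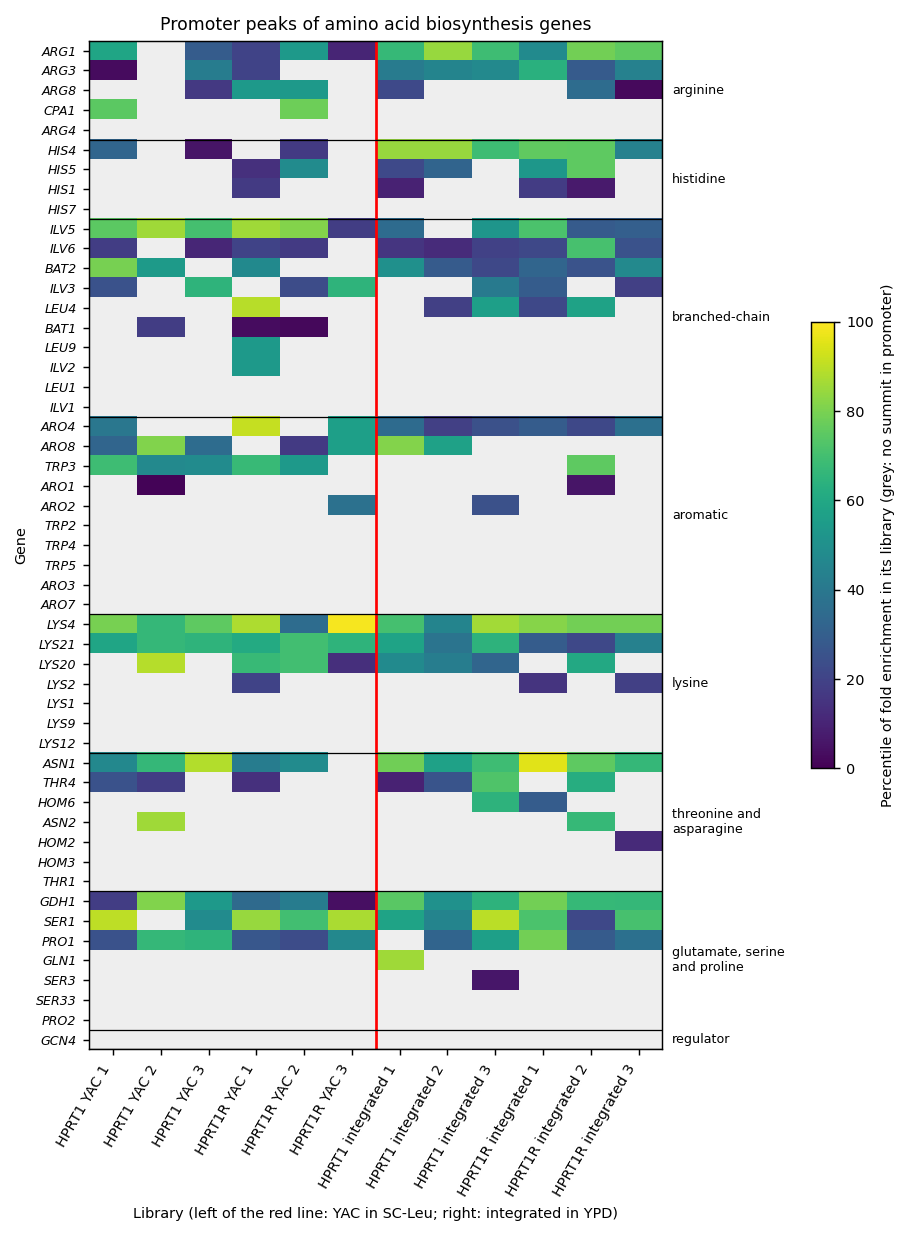
Strength of the promoter peak of each member (rows, grouped by pathway) in each library (columns; YAC left and integrated right of the red line), as the percentile of its fold enrichment among nuclear peaks of that library; grey cells hold no summit in the promoter. LYS4, LYS21 and GDH1 are filled in all 12 libraries, and 17 genes are grey throughout.

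In the arginine pathway 4 of 5 promoters were open in at least 1 library, those of ARG1 and ARG3 most often. ARG1 (argininosuccinate synthetase, chromosome XV, 219211 to 220473) was open in 5 YAC and 6 integrated libraries, and ARG3 (ornithine carbamoyltransferase) in 3 and 6. ARG8, which encodes acetylornithine aminotransferase, was open in 3 and 3. ARG4, for argininosuccinate lyase, the step after Arg1, was open in none, and its nearest summit lay at least 2320 bp from the gene start. CPA1, the small subunit of carbamoyl phosphate synthetase, had a summit in its window in 2 YAC libraries and in 0 integrated ones. A peak overlapped the CPA1 window in all 12 libraries, with its summit farther upstream in the other 10, at -532 bp or beyond.

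ARG1 peaks had a higher median fold enrichment in integrated libraries. Their fold enrichment was 2.61, 3.08 and 3.70 as lowest, median and highest of the 5 open YAC libraries, and 3.58, 4.38 and 5.02 in the 6 integrated ones. These ranges overlapped. Their percentile ran from 10.2 to 58.6 in YAC and from 47.8 to 84.4 in integrated libraries. Fold enrichment and percentile belong to each list, and lists differ in length, so no test was made of them.

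Among histidine genes, HIS4 was open most often. It encodes a multifunctional enzyme of histidine synthesis and lies on chromosome III, 65934 to 68333. It was open in 3 of 6 YAC and 6 of 6 integrated libraries. HIS5 (histidinol-phosphate aminotransferase) was open in 2 and 4, and HIS1, whose enzyme takes the first step, in 1 and 3. HIS7, for imidazole glycerol phosphate synthase, was open in 0 and 0. All 3 open histidine genes were thus open in more integrated than YAC libraries. The pathway's share was 25% ± 22.4 over the 6 YAC libraries and 54.2% ± 24.6 over the 6 integrated ones (mean ± SD), the widest gap between formats of the 7 pathways. The ranges overlapped, with 0 to 50% and 25% to 75%. The differences in the other pathways were -11.9 points for threonine and asparagine, -6.67 for arginine, -4.76 for glutamate, serine and proline, -2.38 for lysine, -1.67 for branched-chain and 6.67 for aromatic genes, the one pathway with a larger YAC share. The difference between pathways was not tested. Within synHPRT1 strains the difference was -33.3 points and within synHPRT1R strains -25 points. With promoters ending at 300 bp upstream it was -4.17 points, with HIS4 at 3 YAC and 2 integrated libraries and HIS1 at 1 and 1.

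In the branched-chain pathway, which makes leucine, isoleucine and valine, ILV5 and ILV6 were open most often. ILV5 (acetohydroxyacid reductoisomerase) was open in 6 YAC and 5 integrated libraries, and a summit also lay inside its coding region in 6 YAC libraries and 1 integrated one. ILV6, the regulatory subunit of acetolactate synthase, was open in 4 and 6, and its catalytic partner ILV2 in 1 and 0. ILV3 (dihydroxyacid dehydratase) had 4 and 3. ILV1 (threonine deaminase) and LEU1 (isopropylmalate isomerase) were open in none. The isopropylmalate synthase genes LEU4 and LEU9 had 1 and 4, and 1 and 0. The branched-chain aminotransferases were BAT1, whose enzyme is mitochondrial, with 3 and 0, and BAT2, the cytosolic one, with 3 and 6.

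Of the 10 aromatic genes, 5 were open in none: TRP2, TRP4 and TRP5 of the tryptophan branch, ARO3, and ARO7, the chorismate mutase gene. TRP3, a subunit of anthranilate synthase with a further enzyme activity, was open in 5 YAC libraries and 1 integrated library. ARO4, which encodes the DAHP synthase inhibited by tyrosine, had 3 and 6, while ARO3, its phenylalanine-inhibited counterpart, had 0 and 0. ARO8 (an aromatic aminotransferase) had 5 and 2, and its window held a tRNA gene, the one member of which this was true. ARO1, the multifunctional enzyme of the shikimate pathway, and ARO2, chorismate synthase, each had 1 and 1.

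Lysine genes differed widely. LYS21 and LYS4, for homocitrate synthase and homoaconitase at the start of the pathway, were open in all 12 libraries, and LYS20, the other homocitrate synthase gene, in 4 and 4. LYS2 (aminoadipate reductase) had 1 and 2. LYS12, LYS9 and LYS1, for homoisocitrate dehydrogenase and the saccharopine dehydrogenases, were open in none.

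LYS4 lies on chromosome IV, 931129 to 933210. Its fold enrichment was 3.22, 4.27 and 5.87 (lowest, median and highest) in the 6 YAC libraries and 3.43, 4.67 and 5.27 in the 6 integrated ones. The formats overlapped, and the highest value, in HPRT1R YAC replicate 3, stood at percentile 98.8 of its list. The summit lay between -494 and -331 bp. LYS21 (chromosome IV, 227393 to 228715) had 3.53, 3.74 and 4.10 in YAC and 3.11, 3.36 and 4.25 in integrated libraries, which also overlapped. Its peaks were narrow, with a median width of 187 bp against 286 bp over all promoter peaks, and their summits lay between -375 and -220 bp. In contrast to LYS4, the LYS21 summit lay in no other gene's promoter window.

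Threonine and asparagine arise from aspartate. ASN1, an asparagine synthetase gene, was open in 5 and 6 libraries, and its paralogue ASN2 in 1 and 1. THR4 (threonine synthase) had 3 and 4. HOM6 (homoserine dehydrogenase) had 0 and 2, and HOM2 (aspartate semialdehyde dehydrogenase) 0 and 1. HOM3, the aspartate kinase gene of the first step, and THR1 (homoserine kinase) were open in none. The nearest summit to THR1 lay at least 7977 bp away.

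In the glutamate, serine and proline group, 3 genes accounted for most open cases. GDH1, the NADP-dependent glutamate dehydrogenase that fixes ammonium (chromosome XV, 1041678 to 1043042), was open in 6 and 6. Its fold enrichment was 2.45, 3.27 and 3.91 in YAC libraries and 3.57, 4.20 and 4.67 in integrated ones, with overlap. The summit lay between -459 and -281 bp, and the weakest case, in HPRT1R YAC replicate 3, stood at percentile 4.16 of its list. SER1 (phosphoserine aminotransferase) had 5 and 6, and PRO1 (gamma-glutamyl kinase) 6 and 5. GLN1 (glutamine synthetase) had 0 and 1, the phosphoglycerate dehydrogenase genes SER3 and SER33 had 0 and 1, and 0 and 0, and PRO2, which acts after PRO1, had 0 and 0.

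By summits in the window, the isoenzyme genes listed here were open in the following numbers of libraries. ARO4 was open in 9 libraries and ARO3 in 0, BAT2 in 9 and BAT1 in 3, ASN1 in 11 and ASN2 in 2, LYS21 in 12 and LYS20 in 8, LEU4 in 5 and LEU9 in 1, and SER3 in 1 and SER33 in 0. For several of these the window's edge mattered. By overlap of a peak with the window, LYS20 reached 12 libraries, the same as LYS21, and ASN2 reached 11, against 12 for ASN1. LEU4 also reached 12, while ARO3, LEU9, BAT1, SER3 and SER33 gained none. The differences within pairs were not tested or set beside those between unrelated members. Some isoenzymes share much coding sequence, and how multiply matching reads were treated was not stated.

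Peaks of several members straddled the edge of the window. The farthest summit counted as open was at -499 bp, at GLN1 in HPRT1 integrated replicate 1. The nearest ones not counted lay at -510 bp for ILV3, -511 bp for LYS20, -515 bp for LEU4 and -517 bp for ARO2. A peak overlapped the GLN1 window in all 12 libraries. In all, 9 members were overlapped in all 12 libraries (CPA1, LEU4, ARO8, LYS4, LYS20, LYS21, ASN1, GDH1 and GLN1), against 7.98% of all genes. As with summits, 17 members were overlapped in none, against 58.3% of all genes.

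GCN4, on chromosome V, 138918 to 139763, had no summit in its window and no peak touching it in any library. A broad peak stood farther upstream in all 12 libraries. Its edge nearest to the gene start lay between -752 and -632 bp and its width was 855 to 1182 bp, so that it covered all or nearly all of the divergent neighbour YEL008W (140512 to 140892). The summit varied within the broad peak from -1541 to -894 bp. Fold enrichment was 3.78, 4.56 and 5.42 (lowest, median and highest) in the 6 YAC libraries and 5.07, 5.37 and 5.71 in the 6 integrated ones, with overlap. This placed the peak at percentiles 74.6 to 95.7 of the lists, and its median percentile of 91.0 was above that of the peaks in the window of any other member. Peaks outside the windows of other members were left out of this ranking. HOM2 also had a summit upstream of its window in all 12 libraries, between -1110 and -969 bp, at percentiles 58.6 to 97.4. GCN4 is known for a long leader, and its window ends before its upstream peak.

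**Figure D3:**
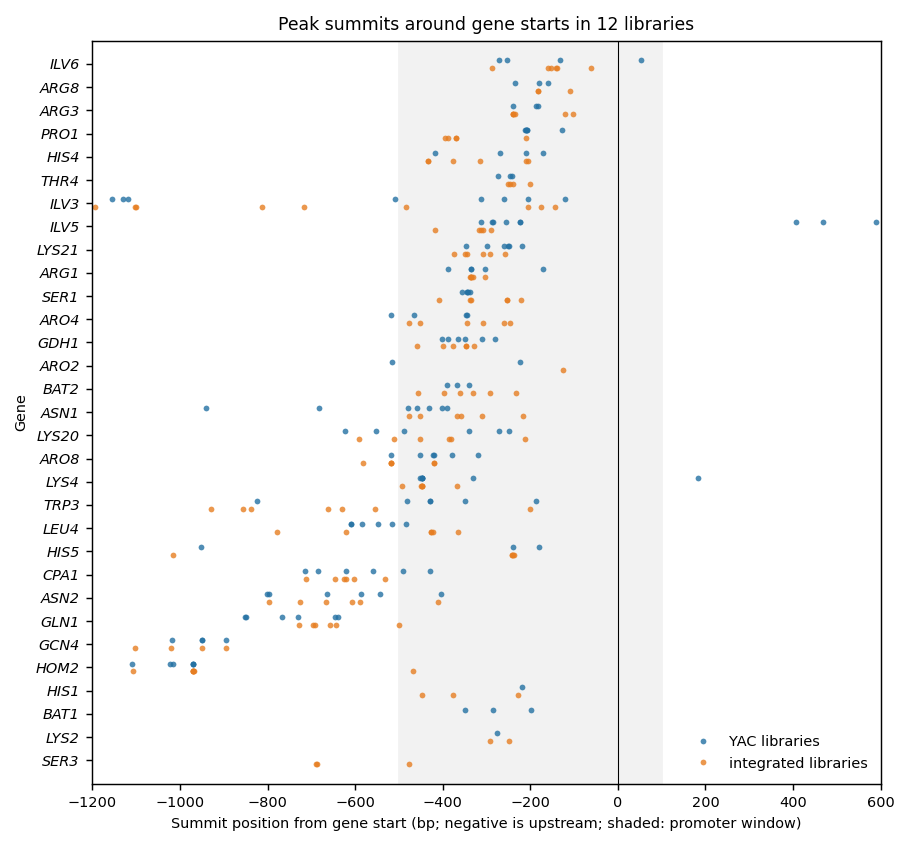
Position of every peak summit relative to the gene start (x axis, bp, negative upstream) for members (y axis) with at least 3 libraries holding a summit within 1000 bp upstream or in the promoter window (shaded), in YAC (blue) and integrated (orange) libraries. TRP3, LEU4, ARO8, LYS20, CPA1, ASN2 and GLN1 have summits on both sides of the window's upstream edge. So do ASN1, ILV3, ARO4, HIS5, HOM2, ARO2 and SER3. The GCN4 summits shown all lie beyond that edge (those past the left end of the axis are not drawn).

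YAC (SC-Leu) and integrated (YPD) libraries were then compared gene by gene. The share of open members was 32.7% ± 7.61 over the 6 YAC libraries and 37.3% ± 3.72 over the 6 integrated ones (mean ± SD). The ranges overlapped, with 23.5% to 45.1% and 33.3% to 43.1%. The difference of -4.58 points was smaller than the pooled SD within formats, 5.99 points. It was -5.88 points within synHPRT1 strains and -3.27 points within synHPRT1R strains. All genes had 14.3% ± 0.688 and 17.02% ± 2.02, a difference of -2.76 points, and nuclear peaks numbered 913 to 1041 in YAC and 993 to 1303 in integrated libraries. When each list was cut to its 913 most significant nuclear peaks, the difference became 1.63 points for members and -0.10 points for all genes.

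Fisher's exact test, with Benjamini-Hochberg adjustment over the 2040 genes open in 1 to 11 libraries, called no member at 0.05 and no other gene either, so the background was 0%. At an unadjusted p under 0.05, 0 of the 31 members tested passed, against 0.147% of genes tested that were open in more YAC libraries and 0.392% open in more integrated ones, 11 genes in all. That count was 13 to 26 when 1 library was left out, with 26 without HPRT1 YAC replicate 3, and 7 with lists of equal length. With unequal numbers of libraries the test has other attainable p-values, so counts with 1 library left out are not comparable with 11. Other definitions gave 3 members an unadjusted p of 0.0152 and no adjusted call: PRO1, open in 6 YAC libraries and 1 integrated one with promoters ending at 300 bp upstream, and ARG3 and HIS4, open in 1 and 6 with a fold enrichment of at least 3. An exact permutation test within constructs likewise gave 0 genes after adjustment and 11 before. With 6 libraries against 6 the smallest p of Fisher's exact test is 0.00216, and at least 89 genes at that limit would have been needed for 1 to pass. The count of 0 therefore does not show that promoters were alike.

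By number of libraries, integrated ones were ahead at 17 members and YAC ones at 9, which is 54.8% and 29.0% of the 31 tested. The backgrounds were 54.5% and 28.5%, close to the members' shares. With lists cut to 913 peaks the direction turned, with YAC libraries ahead at 15 members and integrated ones at 9. Over all genes the same cut put YAC libraries ahead at 721 genes and integrated ones at 693, a nearly even split. Whether members differed from all genes in this split was not tested. Differences of at least 3 libraries were found for 5 members toward integrated libraries (background 8.24%) and for 3 toward YAC libraries (background 2.06%). These 8 were ARG3, HIS4, LEU4, BAT2 and ARO4, and BAT1, TRP3 and ARO8.

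**Figure D4:**
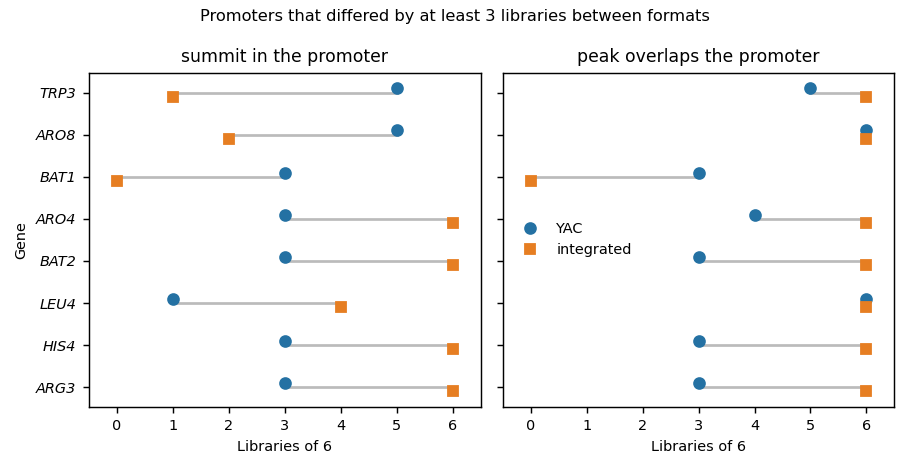
Number of 6 YAC (blue circles) and 6 integrated (orange squares) libraries in which each of the 8 members that differed by at least 3 libraries had a summit in its promoter (left) or any peak overlapping it (right). TRP3, ARO8 and LEU4 come together on the right, while ARG3, HIS4, BAT2 and BAT1 keep their difference.

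Of the 5 higher in integrated libraries, ARG3 (chromosome X, 268799 to 269815) had a fold enrichment of 2.37 and 3.37 in HPRT1 YAC replicates 1 and 3 and 2.87 in HPRT1R YAC replicate 1. In the 6 integrated libraries it was 3.25, 3.43 and 4.05 (lowest, median and highest), so the highest YAC value fell within the integrated range. The counts of 3 and 6 gave an unadjusted p of 0.182 and an adjusted p of 1 (Fisher's exact test). By peak overlap the counts were the same, and among the 913 most significant peaks they were 2 and 6.

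HIS4 peaks were weaker in YAC libraries. Their fold enrichment was 3.11 and 2.49 in HPRT1 YAC replicates 1 and 3 and 2.78 in HPRT1R YAC replicate 2, against 3.42, 4.53 and 4.86 in the 6 integrated libraries. The formats did not overlap. Of the 758 genes open in at least 3 libraries of each format, 4.35% had integrated values all above YAC values and 0.264% the reverse. HIS4 was the one of 17 members in that class with integrated values all above. That is 5.88%, close to the 4.35% over all genes. Within their own lists the YAC peaks stood at percentiles 5.65 to 32.5 and the integrated ones at 43.8 to 84.4. Recovered summit heights were 16 to 20 reads in YAC and 21 to 34 in integrated libraries. Its counts of 3 and 6 had an unadjusted p of 0.182 and an adjusted p of 1 (Fisher's exact test). With a fold enrichment of at least 3, HIS4 was open in 1 YAC library and 6 integrated ones, and so was ARG3 (unadjusted p of 0.0152 each, Fisher's exact test).

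BAT2 (chromosome X, 705744 to 706874) had fold enrichments of 4.30 and 3.28 in HPRT1 YAC replicates 1 and 2 and 3.47 in HPRT1R YAC replicate 1. The integrated values were 2.95, 3.26 and 3.45. The ranges overlapped at BAT2, with the highest value in a YAC library. ARO4 (chromosome II, 716882 to 717994) had 3.26 in HPRT1 YAC replicate 1 and 4.98 and 3.42 in HPRT1R YAC replicates 1 and 3, against 2.86, 3.12 and 3.27 in integrated libraries, which also overlapped. ARO4 fell to 3 and 3 among the 913 most significant peaks of each list, whereas BAT2 stood at 3 and 5.

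LEU4 (chromosome XIV, 424895 to 426754) had a summit in its window in 1 YAC library, HPRT1R replicate 1, with a fold enrichment of 4.83. Integrated values were 2.86 and 3.95 in HPRT1 replicates 2 and 3 and 2.96 and 4.19 in HPRT1R replicates 1 and 2. A peak overlapped its window in all 6 libraries of both formats. The counts of 1 and 4 gave an unadjusted p of 0.242 (Fisher's exact test).

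Of the 3 higher in YAC libraries, TRP3 (chromosome XI, 36699 to 38153) had the smallest p of all members, 0.0801 unadjusted and 1 adjusted (Fisher's exact test), with counts of 5 and 1. Its fold enrichment was 3.999, 3.15 and 3.52 in HPRT1 YAC replicates 1 to 3 and 3.92 and 3.66 in HPRT1R YAC replicates 1 and 2. The single integrated value, in HPRT1R replicate 2, was 4.86. Of peaks with a summit in the window its own were the widest by the median, at 731 bp, and TRP3 peaks overlapped the window in 5 YAC and 6 integrated libraries. In the other 5 integrated libraries the nearest summits lay between -857 and -555 bp, outside the window. These peaks were 453 to 780 bp wide in 4 of the libraries, while HPRT1R integrated replicate 3 had separate peaks of 291 and 146 bp. With 1000 bp upstream the counts were 5 and 6.

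ARO8 (chromosome VII, 116059 to 117561) had fold enrichments of 3.11, 3.91 and 3.22 in HPRT1 YAC replicates 1 to 3 and 2.78 and 3.42 in HPRT1R YAC replicates 2 and 3. Integrated values were 4.42 and 3.72 in HPRT1 replicates 1 and 2. By peak overlap it was at 6 and 6, so its summit, too, crossed the window's edge. BAT1 (chromosome VIII, 517532 to 518713) was weak where present. Its fold enrichment was 2.65 in HPRT1 YAC replicate 2 and 2.41 and 2.34 in HPRT1R YAC replicates 1 and 2, at percentiles of 2.23 to 18.2. None of its 3 peaks reached a fold enrichment of 3.

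Other genes of the pathways and their regulators gave shares whose ranges over libraries overlapped those of the members. Over 21 further biosynthesis genes the share was 22.6% ± 6.46, and over 18 regulators and sensors 27.3% ± 9.01 (n = 12 libraries). The difference from the members was not tested. No gene of either list passed the adjusted test, for a background of 0%. Of the 21, integrated libraries were ahead at 5 and YAC libraries at 3, of 10 open in 1 to 11 libraries, and another 10 were open in none. ARO9, another aromatic aminotransferase gene, was open in all 12. HIS2, a further histidine gene, was open in 2 YAC and 5 integrated libraries, in the same direction as HIS1, HIS4 and HIS5, while HIS6 had 0 and 1 and HIS3 was open in none. GLT1, for glutamate synthase, had 0 and 4. Of the 18 regulators, integrated libraries were ahead at 8 and YAC libraries at 1, PHO2, of 10 open in 1 to 11 libraries. The backgrounds for both lists were the same 54.5% and 28.5%, and the integrated lists were longer on average. PUT3, the proline utilisation activator, and GAT1, a nitrogen regulator, each had 5 and 6. GCN2, the kinase upstream of GCN4, had 0 and 2, and LEU3 was open in none.

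LEU2, an isopropylmalate dehydrogenase gene that is not functional in BY4741, had a summit in its window in 2 YAC and 0 integrated libraries. The fold enrichment was 3.85 in HPRT1 YAC replicate 1, with the summit at -173 bp, and 4.24 in HPRT1R YAC replicate 3, with the summit 93 bp inside the gene. Growth without leucine needs a working LEU2 copy, which the labels do not describe. Whether these 2 summits came from reads of such a copy was not tested.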

How the data were processed

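The deposited values were peak lists, 1 per library. MACS2 2.1.0, Bowtie2 2.2.9, deepTools 3.5.0, SAMtools 1.9 and bcl2fastq 2.20 are named in the submitters' processing notes, along with the genome sacCer3, which is R64. Options for peak calling, read shifting and duplicate filters were not stated. In the deposited columns the authors gave a fold enrichment (a ratio to local background), -log10 p-values, -log10 q-values and a score, which was not used. Growth was at 30 °C for 6 h after dilution to an OD of 0.1, and tagmentation took 30 min at 37 °C, per the labels' protocols.

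Summits were column 2 plus column 10, and gene positions came from the RefSeq table, with strand from systematic names. Whole pileups were recovered under a Poisson model with a pseudocount of 1 and matched the deposited -log10 p within 0.01 for 99.9% of 13746 peaks. Read totals per library are unknown, so no counting interval is given. Fisher's exact test (two-sided, scipy 1.17.1, Python 3.11.15) ran per gene over all genes open in 1 to 11 libraries and was tested on simulated data. Shares of lists got no test. Members and lists were chosen with earlier results of these data known. Detailed genes were those open in all 12 libraries, those that differed by at least 3 libraries between formats, and GCN4; ARG1, LEU2 and the isoenzyme pairs were described after their values were seen. Promoter sequence and motifs were not analysed here. Alternatives changed the promoter window, the overlap rule, the peak threshold, the length of the lists and the libraries. No pair of libraries had identical promoter calls.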

Additional observations from a re-analysis of the deposited data

Results flagged for a closer look

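Shares by format were checked for a library far from the other 5 in 16 groups of 6 libraries, some of which can be set apart by chance. The glutamate, serine and proline genes stood out in both formats. In YAC libraries HPRT1 replicate 2 was open at 28.6% of them, below the other 5 libraries at 42.9% each, for want of a SER1 summit. In integrated libraries HPRT1 replicate 3 reached 57.1%, above the other 5 at 42.9% each, through a SER3 summit at percentile 6.02 of its list. Each is a step of 1 gene of 7.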

How the results depend on the processing

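No gene was called between formats under any alternative of window, overlap, threshold, list length or construct, without any 1 library, or with the replicate block (0 genes by sign-flip test over 6 pairs, 2 at an unadjusted p under 0.05). The smallest possible p is 0.1 within 1 construct and 0.0312 for the block, so these counts of 0 say little. Correlations of same-numbered libraries were -0.05 to 0.02, so the numbers were not taken as pairs. With 300 bp upstream, 10 members were open in more integrated libraries and 0 in all; shares were 15.7% of members (8.37% of all genes), 26.7% arginine, 22.5% branched-chain, 5.00% aromatic, 15.5% lysine, 11.9% threonine and asparagine, and 13.1% glutamate, serine and proline, and YAC minus integrated was -4.17 points for histidine, -3.33 for aromatic, and 7.14 for both lysine and glutamate, serine and proline. With peak overlap, 9 members were open in all libraries; shares were 44.0% of members (21.7% of all genes), 31.7% aromatic and 56.0% glutamate, serine and proline, and the aromatic difference was -3.33. A fold enrichment of at least 3 gave 26.5% of members (11.6% of all genes), 23.3% branched-chain, and -11.9 points for glutamate, serine and proline. A -log10 q of at least 10 left 2 members with more YAC, 9 with more integrated and 0 with all libraries, 3.59% of members open (2.49% of all genes), and by pathway, in the order of arginine, histidine, branched-chain, aromatic, lysine, threonine and asparagine, and glutamate, serine and proline, 3.33%, 8.33%, 0.833%, 2.50%, 5.95%, 4.76% and 3.57%; the aromatic difference was -1.67. Equal lists of 913 peaks reversed the split, with YAC libraries ahead at 15 members and integrated ones at 9. Over all genes these counts were 721 and 693. Equal lists also moved the difference to 1.63 points over members and 13.3 over aromatic genes. In synHPRT1R libraries alone 7 members were open in all, a count over fewer libraries that is not comparable with those over 12. A window from 1000 bp upstream, added after seeing the data, gave 10 members open in all libraries, 47.1% of members (23.0% of all genes), 32.5% aromatic, 48.8% threonine and asparagine and 58.3% glutamate, serine and proline, and -1.67 points for aromatic genes. Over all genes, 14.5% were open in more integrated libraries with 300 bp upstream. Those open in all 12 libraries were 7.98% with peak overlap and 8.28% with 1000 bp upstream. At a -log10 q of at least 10, 1.27% had more YAC and 6.91% more integrated libraries. The cause of the changes between alternatives was not tested, beyond what each window or threshold leaves out. Leaving out 1 library gave 9 to 14 members with a larger YAC share (14 without HPRT1 YAC replicate 1), 17 to 22 with a larger integrated share, 3 to 5 open in all (5 without HPRT1 YAC replicate 2, with ARG1 and SER1 added), and differences of -7.06 to -2.75 points over members, -10.0 to 2.00 for arginine (2.00 without HPRT1 YAC replicate 2) and -8.00 to 2.00 for branched-chain genes (2.00 without HPRT1R YAC replicate 3, 0.333 without HPRT1 integrated replicate 3 or HPRT1R integrated replicate 1).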
